A study of Mus musculus with 6 samples.

Results

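The tripartite motif (TRIM) family was examined in RNA-seq read counts of microglia, the resident macrophages of the brain, from the cerebellum of mice. Members were the genes whose symbol is Trim followed by a digit, pseudogene symbols left out, with at least 10 counts summed over the 6 libraries. This gave 48 members among the 58 such genes in a table of 23491 genes, and 44 of them had enough counts to be tested. Just inside that limit was Trim55 with 17 counts in total, followed by Trim6 with 37, and just outside were Trim38 and Trim12a with 7 counts each.

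All mice were labelled Fmr1 knock out, a model of fragile X syndrome, and had received either saline or poly(I:C), a synthetic double-stranded RNA used as a viral mimic. Each group had 3 libraries, and the control is named saline in one label and sham in the titles. The knock out is shared by both groups and there was no wild-type group among the libraries analysed, so nothing here compares genotypes, and the labels used give no age, dose or time after injection. Cells were purified with magnetic beads that bind CD11b, which is also found on monocytes and neutrophils. The labels do not say whether the libraries of a group came from separate mice, and p-values here reflect only the spread among these libraries, which may be technical.

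Most TRIM proteins are ubiquitin ligases: a RING domain recruits an enzyme loaded with ubiquitin, a B-box and coiled coil form dimers and higher assemblies, and a variable C-terminal domain, often B30.2 (also called SPRY), chooses the target. Several TRIM genes are known to be interferon-induced, and their proteins bind viral components or tune the RNA and DNA sensors, adaptors and kinases that lead to interferon. Others act in chromatin, at microtubules, at membranes or in muscle.

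Total counts were between 33710545 and 34899835 per library, and 3 counts corresponded to between 0.0860 and 0.0890 CPM, which are counts scaled to a common library total. Levels are in CPM scaled with the trimmed mean of M-values (TMM), and called means an adjusted p under 0.05 in the quasi-likelihood test of edgeR, adjusted by Benjamini-Hochberg over 14727 tested genes. Fmr1 itself had between 1243 and 1375 counts in the saline libraries and between 1484 and 2205 in the poly(I:C) libraries, and since which part of the gene was disrupted is not given, these reads check neither genotype nor labels. Summed microglial markers (9 of 10 listed genes had a row, none was at 0 in all libraries) were between 37333 and 43057 CPM in saline and between 29351 and 40238 CPM in poly(I:C). Saline replicate 1 stood apart with neutrophil markers summing to 20149 CPM, whereas saline replicates 2 and 3 had 2377 and 2282 CPM and the poly(I:C) libraries between 463 and 2173 CPM, and with monocyte markers at 1935 CPM, whereas the remaining 5 libraries had between 145 and 353 CPM. The neutrophil sums of the groups did not overlap. Each saline library was above each poly(I:C) library, so neutrophil content cannot be separated from treatment here. The same holds for oligodendrocyte markers, which summed to between 82.0 and 93.4 CPM in saline and between 62.1 and 74.1 CPM in poly(I:C). Choroid plexus markers summed to 12514 CPM in poly(I:C) replicate 1, and to between 2658 and 6221 CPM elsewhere. All 11 neutrophil, 5 monocyte, 9 choroid plexus and 5 oligodendrocyte markers were detected, and their part in the results below was not tested.

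With poly(I:C), 8 TRIM members rose and none fell. They were Trim30a, Trim30c, Trim34a, Trim34b and Trim12c of a gene cluster on chromosome 7, and Trim25, Trim14 and Trim21, which act on RNA sensing, DNA sensing and antibody-bound virus. The 8 are 18.2% of the 44 tested members, beside 0.883% of all tested genes called higher, and the 0 lower members stand beside 0.0747% of all genes called lower. At an unadjusted p under 0.05, edgeR gave 12 members higher and 5 lower, beside 10.5% and 10.8% of all genes, so the lower count was near the background. The median log2 fold change of the tested members was 0.11, beside 0.01 for all tested genes, and 26 of 44 were above 0. The groups were apart, with no saline value in the range of the poly(I:C) values, and poly(I:C) was higher for 13 members (29.5%, beside 14.0% of all genes) and lower for 5 (11.4%, beside 14.3%). Of the 13, Trim72 and Trim30b had enough counts to be tested only because of their poly(I:C) libraries. Trim6, apart and higher, and Trim10, apart and lower, were not tested and are not counted. DESeq2 called 10 members higher and 2 lower (3.76% and 3.03% of all genes it tested), and limma-voom, run with weights for sample quality, gave 13 higher and 5 lower (8.61% and 10.9%). All 8 members called by edgeR were among those of both tools. Leaving out 1 library at a time gave between 3 and 8 higher members: 4 without saline replicate 2, and 3 when either saline replicate 3 or poly(I:C) replicate 3 was absent.

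**Figure D1:**
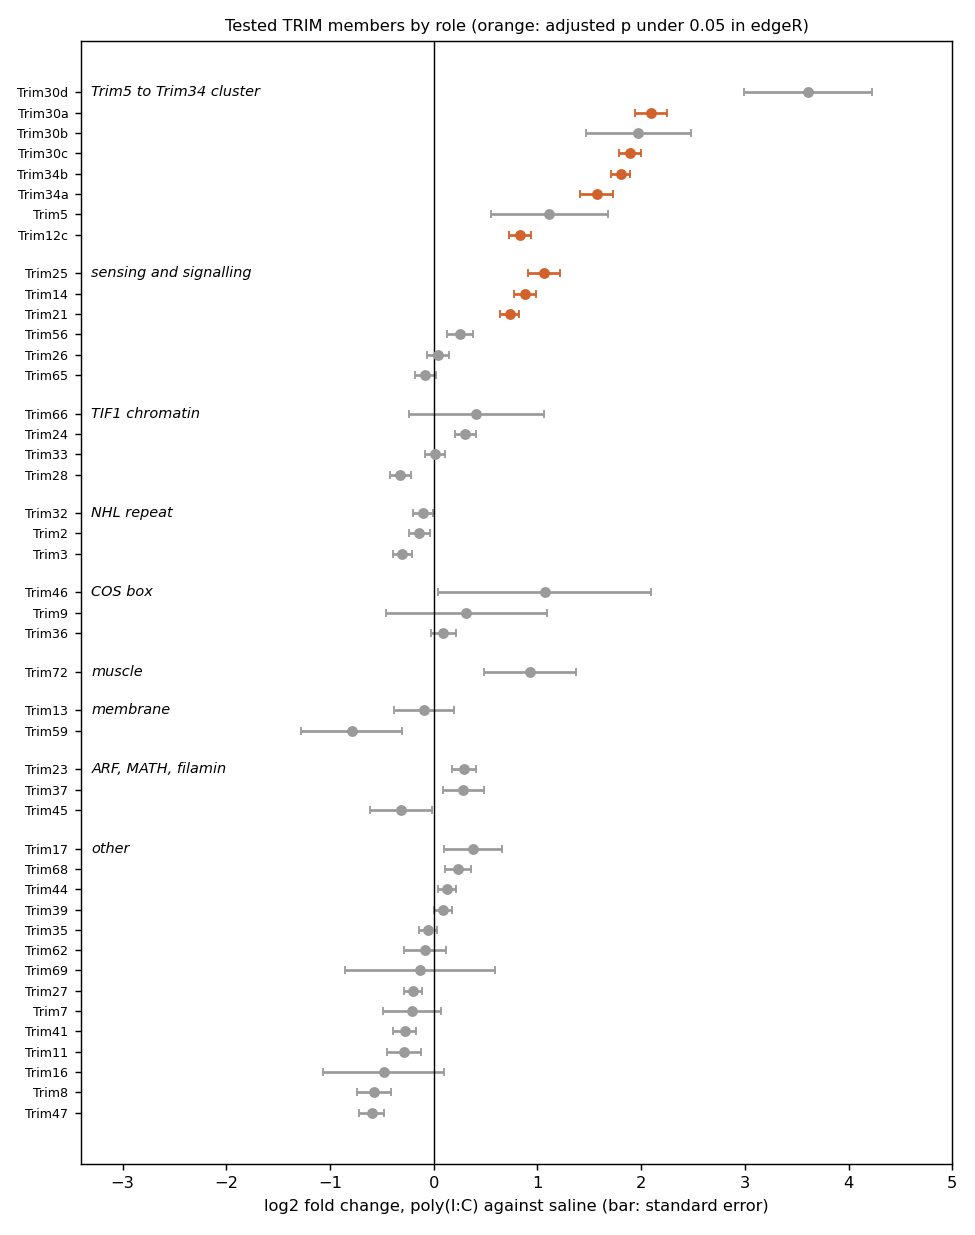
Log2 fold change of poly(I:C) against saline for the 44 tested TRIM members (x axis), grouped by role (y axis), with bars for the standard error and orange for the 8 called members. The orange points sit in the upper 2 groups, and most other roles lie close to 0.

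Short stretches of the start regions of the called members are shown first, because 6 of the 7 that matched the RefSeq promoter table (GRCm38.p6, all but Trim14) hold the 9-base interferon response core GAAANNGAA or its reverse complement between 250 bases before and 50 bases after the gene start. Each line is 30 bases of the gene's own strand, 5′ to 3′, and capitals mark the match.
Trim30a (GRCm38.p6 chr7:104465210-104465239, minus strand): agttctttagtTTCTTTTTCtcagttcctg
Trim34a (chr7:104244457-104244486, plus strand): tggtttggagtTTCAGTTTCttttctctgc
Trim34b (chr7:104329249-104329278, plus strand): ttccttctgccTTCTCTTTCctgtgccacc
Trim12c (chr7:104353359-104353388, minus strand): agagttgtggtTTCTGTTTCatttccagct
Trim25 (chr11:88999383-88999412, plus strand): cgcccctcctgTTCAGTTTCgattccttcc
Trim21 (chr7:102565451-102565480, minus strand): gcctctgagagGAAACTGAAagtgaaattt

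In 5 of these 6 genes the match shown read as the reverse complement on the gene's own strand, and in Trim21 it read in the gene's direction. The matches lay close to the start, at −35 to −27 in Trim30a, −28 to −20 in Trim12c, −9 to −1 in Trim25, 12 to 20 in Trim34a and 14 to 22 in Trim21, except in Trim34b, where it was at −211 to −203. A further Trim21 match at 20 to 28 overlapped the one shown. Trim30a has a further listed start, with a match at 4 to 12. Trim30c had no match to the core, but held 1 match to TTCNNNGAA, the gamma-activated site, which reads the same on both strands and was counted once.

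Counting a gene once if any of its listed starts held a match on either strand, the core was present in 2638 of 27025 promoter entries by gene (9.76%), in 1048 of 11432 tested genes (9.17%), in 11 of 37 TRIM members (29.7%) and in 5 of the 30 members that were not called (16.7%). The members with a match that were not called were Trim30d, Trim5, Trim26, Trim2 and Trim7. Of the other genes called higher, 42 of 96 held one (43.8%). A stricter form, with 1 more A after the core, was in 4 of the 7 called members, 8 of 37 members, 34 of 96 other called genes and 3.99% of all entries. TTCNNNGAA was in 3 of 37 members (8.11%), beside 9.55% of all entries, and its GAA can overlap that of the core. These shares describe letters in a 300-base window, and a match is not a bound site.

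The cluster on chromosome 7 holds Trim genes with B30.2 domains that are related to primate TRIM5, a factor that binds retroviral capsids. In the RefSeq gene order it runs Trim6, Trim34a, Trim5, Trim12a, Trim34b, Trim12c, Trim30b, Trim30c, Trim30a, Trim30d. Of the 9 that are members, 8 were tested, 5 rose and 0 fell, beside 0.883% and 0.0747% of all tested genes. All 8 had a log2 fold change above 0, with a median of 1.85. Trim5 and Trim30b had enough counts to be tested only because of their poly(I:C) libraries, which favoured a sign above 0. DESeq2 and limma-voom each called 7 higher and 0 lower, and 7 were higher and 0 lower in edgeR at an unadjusted p under 0.05. Of all genes, DESeq2 called 3.76% higher and 3.03% lower, and limma-voom 8.61% and 10.9%. The unadjusted edgeR shares were 10.5% and 10.8%. The lists of roles were written with earlier results of these data known, so these counts are no independent evidence of direction.

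Trim30a, whose protein restrains NF-kB signalling by promoting loss of the TAB adaptors, had the most reads of the cluster. It stood at 100.6, 81.5 and 84.8 CPM in the saline libraries and at 440.8, 314.3 and 384.6 CPM in the poly(I:C) libraries. The lowest poly(I:C) library was far above the highest saline library. The means were 88.9 ± 10.3 and 380 ± 63.4 CPM (SD, n = 3 each), a 4.27-fold rise (log2 2.09, SE 0.15, edgeR adjusted p = 0.00155).

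Trim30c, a neighbouring copy, was at 11.1, 11.5 and 11.3 CPM in saline and at 46.3, 39.6 and 40.4 CPM in poly(I:C), a 3.72-fold rise (log2 1.89, SE 0.10, edgeR adjusted p = 0.000698). The saline libraries were nearly equal and the groups did not overlap. Trim30d and Trim30b were not called, and are described after their values were seen because they are copies of Trim30a. Trim30d was at 1.40, 0.462 and 0.707 CPM in saline and at 17.5, 4.91 and 9.03 CPM in poly(I:C). Its means differed 12.2-fold, the most of any member (log2 3.61, SE 0.62), but its poly(I:C) libraries spread widely and it missed the threshold (edgeR adjusted p = 0.0604). It passed without saline replicate 1 (adjusted p = 0.0368) and in DESeq2 (adjusted p = 9.92e-10). Trim30b had few reads, with saline counts of 17, 11 and 7 and poly(I:C) counts of 67, 33 and 43, without overlap (log2 1.97, SE 0.51, edgeR adjusted p = 0.141, DESeq2 adjusted p = 0.0295).

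The 120 bases before the start of Trim30d and before 1 of the 2 listed starts of Trim30a are printed because these stretches are alike. Aligned, they matched at 114 of 125 columns (91.2%), and both hold the same core match, in capitals.
Trim30a (GRCm38.p6 chr7:104465194-104465313, minus strand): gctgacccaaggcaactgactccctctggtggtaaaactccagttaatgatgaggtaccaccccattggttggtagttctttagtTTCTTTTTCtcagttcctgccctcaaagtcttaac
Trim30d (GRCm38.p6 chr7:104507850-104507969, minus strand): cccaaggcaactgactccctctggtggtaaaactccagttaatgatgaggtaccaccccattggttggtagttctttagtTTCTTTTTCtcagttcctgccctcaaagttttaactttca

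The stretch before the other Trim30a start matched that of Trim30d at 40.9% of aligned columns, and the Trim30a stretch printed matched that of Trim30c at 46.5%. Genes that are not copies gave like values, such as Trim21 and Trim25 at 50.4%. In both Trim30 pairs, shared bases lie at different distances from the listed starts. The windows are therefore offset, and the low values do not show that the copies differ in sequence. In the gene models of GENCODE M21, 4.4% of the 100-base stretches of Trim30a were also found in Trim30d and 4.6% of those of Trim30d in Trim30a, while Trim30b and Trim30c shared none. With the counts of the Trim30 copies added up, the sum went from 101 ± 10.7 to 434 ± 73.3 CPM (log2 2.10, SE 0.15, edgeR adjusted p = 0.00148), and most of that sum was Trim30a itself.

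The Trim34 genes form the other pair of copies. Trim34b was at 26.8, 26.8 and 26.6 CPM in saline and at 100.0, 84.7 and 95.4 CPM in poly(I:C), a 3.49-fold rise (log2 1.80, SE 0.09, edgeR adjusted p = 0.000698). Trim34a was at 7.72, 7.19 and 7.93 CPM in saline and at 18.5, 25.2 and 24.4 CPM in poly(I:C), a 2.98-fold rise (log2 1.57, SE 0.16, edgeR adjusted p = 0.00695). Neither gene's groups overlapped, and poly(I:C) replicate 1 was the highest library for Trim34b but the lowest of its group for Trim34a. Trim34a lost its call without saline replicate 3 (adjusted p = 0.0552) or poly(I:C) replicate 3 (adjusted p = 0.0616). In the gene models 39.0% of the 100-base stretches of Trim34a recur in another gene, mostly Trim34b, and 23.5% of its exon bases are overlapped by the antisense gene Gm47248, so the split between the copies is uncertain. Their sum rose 3.38-fold, from 34.4 ± 0.307 to 116 ± 5.42 CPM (log2 1.76, SE 0.07, edgeR adjusted p = 0.000546).

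Trim12c, a copy related to primate TRIM5, was at 53.7, 43.8 and 43.6 CPM in saline and at 86.0, 79.1 and 86.1 CPM in poly(I:C). The groups did not overlap, and the 1.78-fold rise was the smallest of the called cluster members (log2 0.83, SE 0.11, edgeR adjusted p = 0.0194). It lost its call without any one of saline replicates 2 and 3 and poly(I:C) replicates 1 and 3 (adjusted p between 0.0615 and 0.143). Trim5 was near the limit of detection, with saline counts of 7, 13 and 6 and poly(I:C) counts of 23, 10 and 25, and its groups overlapped (edgeR adjusted p = 0.288). Trim6, with between 0 and 10 counts per library, was not tested. The predicted gene Gm38525, which lies between Trim12c and Trim30b in RefSeq order and is no member, was at 3.57 ± 1.71 and 9.16 ± 0.732 CPM and was not called (edgeR adjusted p = 0.136).

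**Figure D2:**
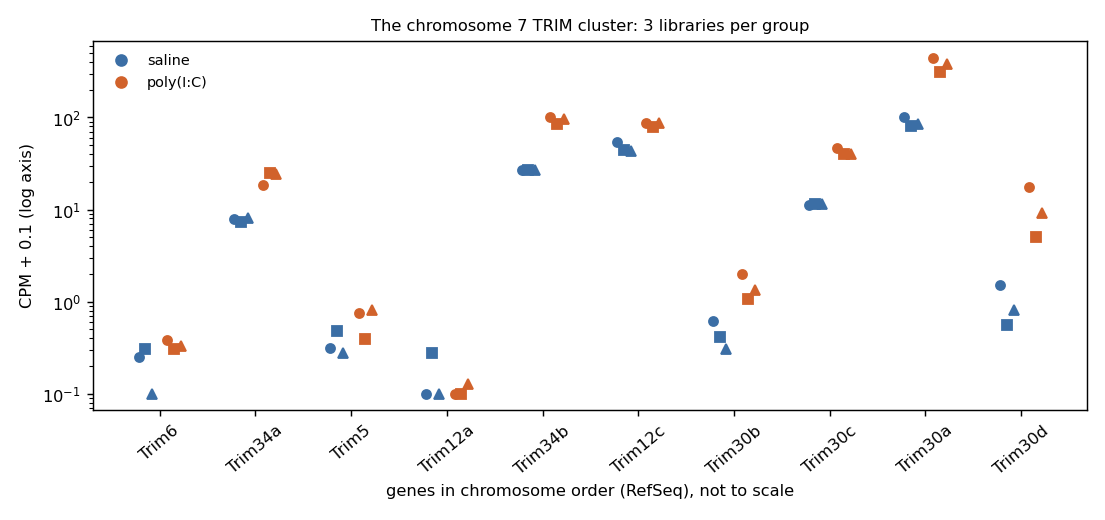
CPM plus 0.1 on a log axis (y) for the Trim genes of the chromosome 7 cluster in gene order, not to scale (x), with 3 saline (blue) and 3 poly(I:C) libraries (orange) per gene, where circle, square and triangle are replicates 1, 2 and 3. Trim34a, Trim34b, Trim12c, Trim30c and Trim30a separate by group well above the floor, while Trim6, Trim5 and Trim12a, which had 7 counts in all and is no member, stay near it.

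Among the 6 members known to act in nucleic acid sensing and interferon signalling, 3 rose and 0 fell, beside 0.883% and 0.0747% of all tested genes. Their median log2 fold change was 0.50. At an unadjusted p under 0.05, edgeR also gave 3 higher and 0 lower (10.5% and 10.8% of all genes). DESeq2 called 3 higher (3.76% of all genes) and limma-voom 4 (8.61%). Trim25, the ligase that modifies the RNA sensor RIG-I, was at 82.7, 61.7 and 61.0 CPM in saline and at 162, 126 and 141 CPM in poly(I:C). Saline replicate 1 was the highest of its group and poly(I:C) replicate 1 the highest of its own, and the groups did not overlap. The means were 68.5 ± 12.4 and 143 ± 18.2 CPM, a 2.09-fold rise (log2 1.06, SE 0.15, edgeR adjusted p = 0.0323). It was called in 1 of the 6 fits that left out 1 library, the one without saline replicate 1, and with both replicates 1 left out its adjusted p was 0.000750.

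Trim14, which has no RING domain and serves as an adaptor of the mitochondrial protein MAVS and a stabiliser of the DNA sensor cGAS, was at 48.7, 39.5 and 48.0 CPM in saline and at 84.8, 77.3 and 88.6 CPM in poly(I:C). That was a 1.84-fold rise without overlap (log2 0.88, SE 0.11, edgeR adjusted p = 0.0183), lost without any one of saline replicates 2 and 3 and poly(I:C) replicate 3 (adjusted p between 0.0558 and 0.131). In the gene models 38.0% of its exon bases are overlapped by genes on the other strand, among them Nans, and reads of these cannot be told apart from its own. Trim21, the cytosolic antibody receptor that targets antibody-coated virus for degradation, was at 34.5, 35.0 and 34.3 CPM in saline and at 52.2, 59.3 and 61.3 CPM in poly(I:C). All poly(I:C) libraries were above a very narrow saline range (1.66-fold, log2 0.73, SE 0.09, edgeR adjusted p = 0.0183). It was called in only 1 of the 6 fits that left out 1 library, the one without poly(I:C) replicate 1 (adjusted p between 0.0533 and 0.139 in the other 5).

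The other 3 regulators did not pass. Trim56, a ligase linked to the adaptor STING and to Toll-like receptor 3, was at 28.5, 30.5 and 29.5 CPM in saline and at 29.5, 39.3 and 36.9 CPM in poly(I:C). Only 1 poly(I:C) library, replicate 1, fell within the saline range (log2 0.26, SE 0.13, edgeR adjusted p = 0.276), and limma-voom called it higher (adjusted p = 0.0427). Trim65, which modifies the RNA sensor MDA5, was at 82.4 ± 7.91 and 78.0 ± 5.99 CPM (edgeR adjusted p = 0.648), and Trim26, which acts on the transcription factor IRF3, was at 163 ± 17.5 and 167 ± 14.9 CPM (edgeR adjusted p = 0.841).

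**Figure D3:**
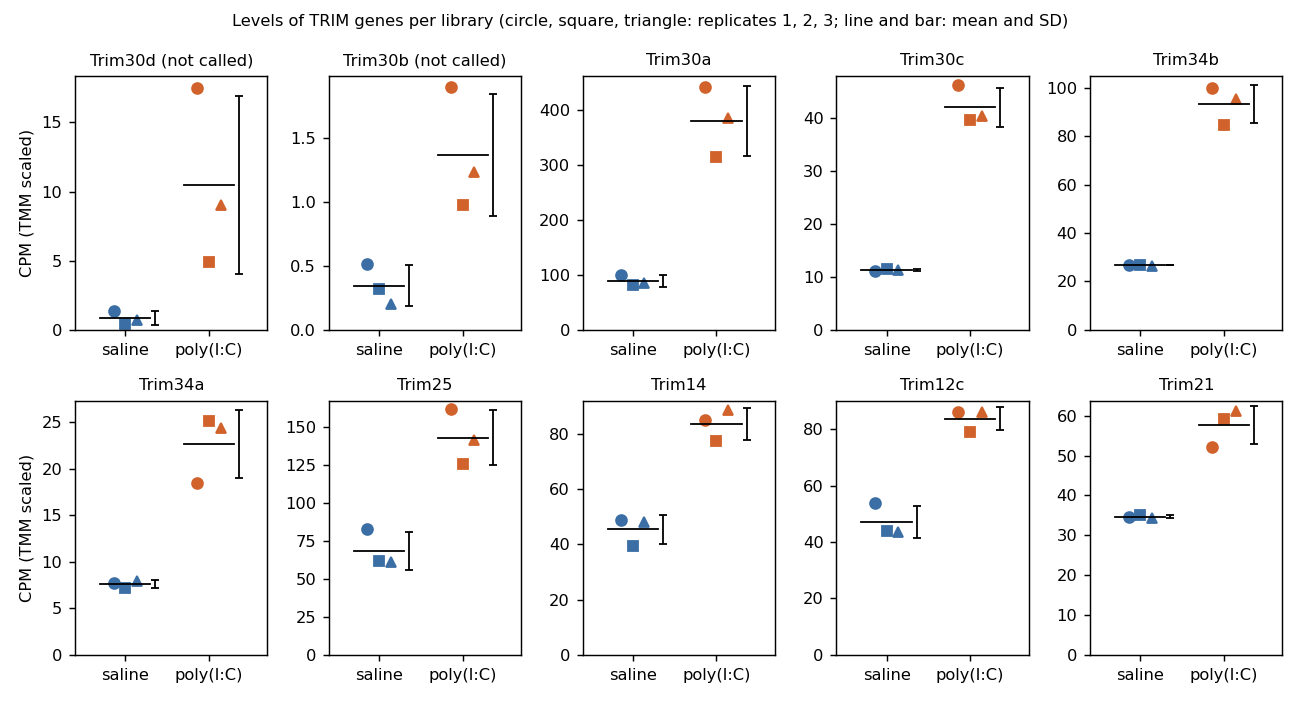
CPM per library (y axis, from 0) for the 8 called members and for Trim30d and Trim30b, by group (x axis), with the line at the mean and the bar for the SD of 3 libraries. In each panel all 3 poly(I:C) libraries lie above all 3 saline libraries.

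The library that was highest varied between the called members. Within poly(I:C), replicate 1 was highest for 4 of the 8, replicate 3 for 3 and replicate 2 for 1, and replicate 2 was lowest for 6. Of the other 122 genes called higher, replicate 1 was highest for 90 and replicate 2 lowest for 79. Poly(I:C) replicate 1 is the library with the highest choroid plexus marker sum, and saline replicate 1, highest of its group for 5 of the 8, is the one with the neutrophil and monocyte markers. With both replicates 1 left out, 9 members were called higher, the 8 and Trim30d, and 1 lower, Trim47. The neutrophil sums still differed by group in that fit, at 2377 and 2282 CPM in saline and 463 and 539 CPM in poly(I:C). Their part in the rises was not tested. In bulk RNA, a change in the number of cells of a type and a change in RNA per cell cannot be told apart.

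None of the 4 chromatin members of the TIF1 group was called by edgeR or DESeq2. At an unadjusted p under 0.05 in edgeR, 1 was higher and 1 lower, beside 10.5% and 10.8% of all genes. Limma-voom called 1 higher and 1 lower, beside 8.61% and 10.9% of all genes. Trim28, the co-repressor (KAP1) through which KRAB zinc finger proteins silence retroelements, was at 298.7, 310.4 and 334.2 CPM in saline and at 226.0, 274.9 and 253.5 CPM in poly(I:C). All poly(I:C) libraries were below all saline libraries, but the difference missed the threshold (314 ± 18.1 and 251 ± 24.5 CPM, log2 −0.32, SE 0.10, edgeR adjusted p = 0.171). Limma-voom called it lower (adjusted p = 0.0190). Trim24, a co-regulator of nuclear receptors, was at 29.3 ± 0.750 and 36.2 ± 3.60 CPM, apart in the opposite direction (edgeR adjusted p = 0.188, limma-voom adjusted p = 0.0210). Trim33, which works with SMAD proteins of TGF-beta signalling, was at 56.2 ± 4.32 and 56.8 ± 3.29 CPM (edgeR adjusted p = 0.941), and its sign turned with RLE scaling and in DESeq2. Trim66 had under 1 CPM in every library (edgeR adjusted p = 0.726).

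In the roles tied to neurons, muscle, microtubules or membranes and in those with an ARF, MATH or filamin domain, no member was called by edgeR or DESeq2. At an unadjusted p under 0.05 in edgeR, 1 was higher and 1 lower, beside 10.5% and 10.8% of all genes. The limma-voom calls named below stand beside 8.61% of all genes higher and 10.9% lower. The NHL-repeat members Trim3, Trim2 and Trim32, best known from neurons and muscle, had log2 differences of −0.30, −0.14 and −0.10. Trim3 was at 52.3 ± 1.79 and 42.5 ± 3.43 CPM without overlap (edgeR adjusted p = 0.171, limma-voom adjusted p = 0.0141). Of the COS-box members, which bind microtubules, Trim36 was at 24.5 ± 2.95 and 26.1 ± 1.83 CPM (edgeR adjusted p = 0.669). The neuronal members Trim9 and Trim46 were near the floor, with standard errors of 0.78 and 1.03 on the log2 scale, and Trim67 was not tested. Trim23, which carries an ARF domain and activates the kinase TBK1 in autophagy, was at 26.1 ± 1.19 and 32.0 ± 3.72 CPM without overlap (edgeR adjusted p = 0.217, limma-voom adjusted p = 0.0438). Trim37 and Trim45, with a MATH and a filamin domain, had log2 differences of 0.29 and −0.32 (edgeR adjusted p = 0.404 and 0.539). Without poly(I:C) replicate 1 these were 0.094 and −0.065, and without poly(I:C) replicate 2 they were 0.43 and −0.61. Of the membrane-anchored members, Trim59 was at 9.22, 3.70 and 3.48 CPM in saline and at 4.32, 1.89 and 3.25 CPM in poly(I:C), where the high value was in the library with the neutrophil markers (log2 −0.79, SE 0.49, edgeR adjusted p = 0.361, and log2 −0.20 without that library), and Trim13 had a log2 difference of −0.09 (edgeR adjusted p = 0.871). The muscle member Trim72, a membrane repair protein, was at 0.237 ± 0.00624 and 0.454 ± 0.0815 CPM without overlap (edgeR adjusted p = 0.270), and 27.6% of its exon bases are overlapped by the antisense gene Gm15533.

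Of the 15 members outside these roles 14 were tested, of which 4 had a log2 fold change above 0, with a median of −0.17, and none was called by edgeR (0 higher and 3 lower at an unadjusted p under 0.05, 2 lower in DESeq2 and 3 in limma-voom, beside 10.8%, 3.03% and 10.9% of all genes lower). Trim47, a B30.2 ligase, was at 69.3, 82.3 and 86.5 CPM in saline and at 51.0, 58.5 and 47.7 CPM in poly(I:C). The groups did not overlap, at 79.4 ± 8.95 and 52.4 ± 5.55 CPM (log2 −0.60, SE 0.12, edgeR adjusted p = 0.0939). It passed as lower in DESeq2 (adjusted p = 0.00388), in limma-voom (adjusted p = 0.00387) and with both replicates 1 left out (edgeR adjusted p = 0.0333). Trim8, which promotes NF-kB and STAT signalling, was at 184, 210 and 221 CPM in saline and at 108, 167 and 138 CPM in poly(I:C), also without overlap. Its log2 difference was −0.57 (SE 0.16, edgeR adjusted p = 0.162), and it passed in DESeq2 (adjusted p = 0.0412) and limma-voom (adjusted p = 0.0115). Trim27 was the remaining tested member without overlap, at 64.6 ± 3.12 and 56.3 ± 3.95 CPM (edgeR adjusted p = 0.242). Trim41 was at 125 ± 9.63 and 103 ± 12.9 CPM with overlap (edgeR adjusted p = 0.222) and passed as lower in limma-voom (adjusted p = 0.0246). Trim10, known from red cell precursors, had saline counts of 15, 16 and 5 and poly(I:C) counts of 4, 3 and 1, without overlap, and was not tested.

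Per kilobase of exon (union of exons in GENCODE M21, whose annotation may differ from the one used for counting), the order of the members differed between the groups. In saline Trim28 had the highest level of the family at 75.6 ± 4.35 CPM per kb, followed by Trim8 at 55.2 ± 5.12 and Trim41 at 35.7 ± 2.74, and Trim30a was in place 8 at 21.6 ± 2.49. In poly(I:C) Trim30a was first at 92.4 ± 15.4 CPM per kb, ahead of Trim28 at 60.5 ± 5.89, and Trim34b had moved from place 10 (14.5 ± 0.0719) to place 3 (50.5 ± 4.25). Trim30a was above Trim28 in each of the 3 poly(I:C) libraries and below it in each saline library. The 3 poly(I:C) values of Trim28, between 54.4 and 66.1, lay just above those of Trim34b, between 45.8 and 54.0. Trim25, Trim14 and Trim21 went from places 13, 16 and 17 to places 8, 12 and 15, and Trim30d from 37 to 29.

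**Figure D4:**
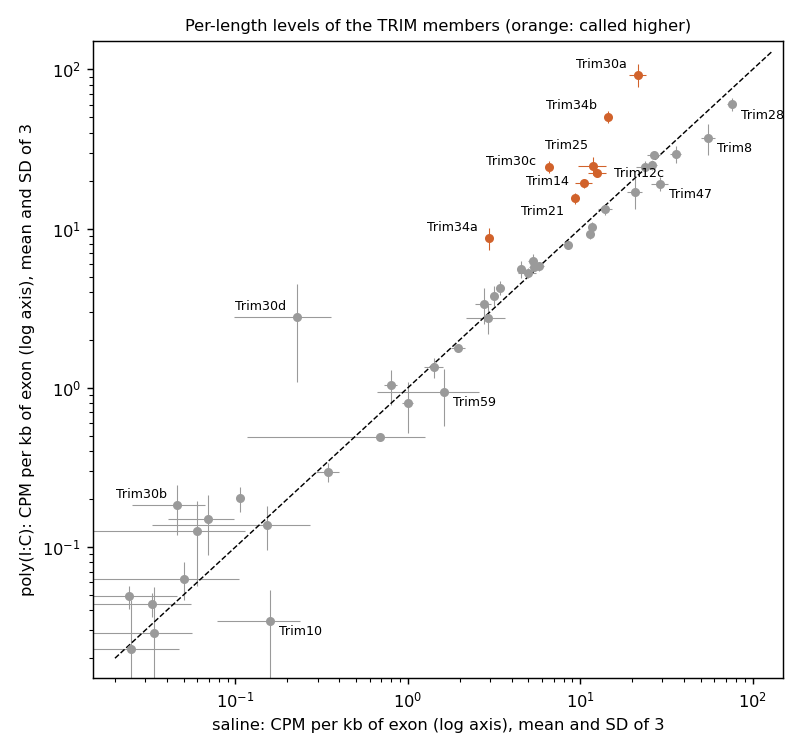
Mean level in saline (x) against poly(I:C) (y) for the 48 members, in CPM per kb of exon on log axes, with bars for the SD of 3 libraries, a dashed line of equality and the 8 called members in orange. The called members lie above the line, and Trim28, Trim8 and Trim47 lie below it.

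The family's summed level was 475 ± 14.5 CPM per kb in saline and 594 ± 0.213 in poly(I:C). The cluster made up 13.7, 11.8 and 11.5% of it in the saline libraries and 37.6, 29.9 and 34.3% in the poly(I:C) libraries, Trim30a alone 4.56 ± 0.629% and 15.6 ± 2.59%, and Trim28 15.9 ± 0.426% and 10.2 ± 0.997%. In plain CPM the cluster summed to 183 ± 16.5 and 634 ± 81.6, and the members outside it to 1923 ± 78.8 and 1879 ± 82.9. The difference in the family's sum lay in the cluster, and the sum of the other members differed by less than the spread between libraries. Outside the cluster, 3 of 36 tested members rose and 0 fell, beside 0.883% and 0.0747% of all tested genes, with a median log2 fold change of −0.02.

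**Figure D5:**
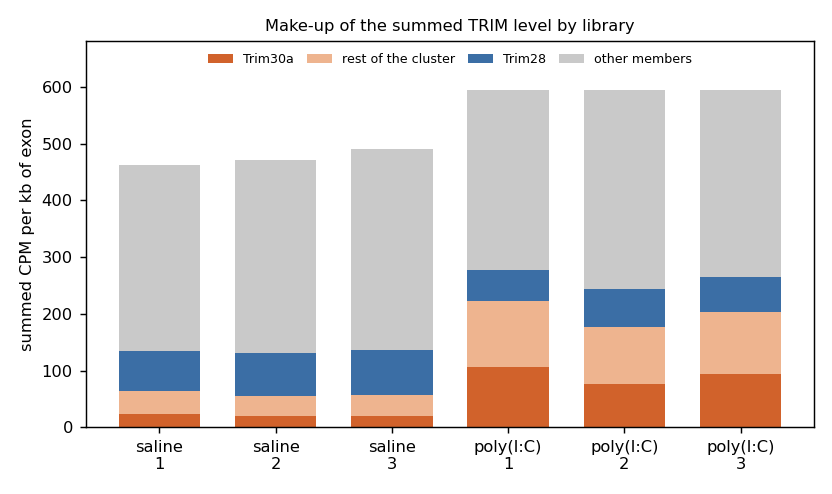
Summed level of the 48 members in each library (y axis, CPM per kb of exon, from 0), split into Trim30a, the rest of the cluster, Trim28 and all other members. The Trim30a and cluster segments are larger in all 3 poly(I:C) libraries, and the grey segments of the groups are of like height.

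Genes whose proteins work with TRIM ligases were read from the same fit. Of 35 partner genes with a row, 7 rose and 0 fell, beside 0.883% and 0.0747% of all genes, with 11 higher and 3 lower at an unadjusted p under 0.05 (10.5% and 10.8% of all genes) and a median log2 fold change of 0.11. DESeq2 called 8 higher and 0 lower (3.76% and 3.03% of all genes), and limma-voom 11 and 3 (8.61% and 10.9%). Among 13 sensors, adaptors and kinases of RNA and DNA sensing, 4 rose: Rigi, the RNA sensor that TRIM25 modifies, from 52.6 ± 6.03 to 172 ± 27.3 CPM (log2 1.71, edgeR adjusted p = 0.00290); Ifih1, which encodes MDA5, from 22.9 ± 2.49 to 90.0 ± 26.2 CPM (log2 1.97, edgeR adjusted p = 0.00995); and the related helicase gene Dhx58 and the transcription factor gene Irf7, with log2 changes of 2.53 and 3.97. The adaptor gene Mavs had a log2 difference of 0.11 (edgeR adjusted p = 0.417), and Cgas and the kinase gene Tbk1 were non-overlapping but not called (log2 0.71 and 0.37, edgeR adjusted p = 0.104 and 0.119). Traf3, another adaptor gene, was apart in the lower direction, at 62.6 ± 2.52 and 53.2 ± 2.76 CPM, and not called (log2 −0.24, edgeR adjusted p = 0.190). Limma-voom called 6 of the 13 higher and 2 lower (8.61% and 10.9% of all genes), and DESeq2 5 and 0 (3.76% and 3.03%).

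Of 6 cofactors and regulators of TRIM25 and TRIM21, 2 rose: Zc3hav1, whose antiviral protein ZAP works with TRIM25, from 100 ± 13.6 to 178 ± 17.5 CPM (log2 0.83, edgeR adjusted p = 0.0401), and Isg15, a ubiquitin-like modifier, from 5.45 ± 2.57 to 57.9 ± 14.5 CPM (log2 3.41, edgeR adjusted p = 0.00885). Rnf135, another RIG-I ligase, and Usp15, a deubiquitinase, had log2 differences of −0.22 and 0.02. None of 9 ubiquitin-conjugating enzyme genes was called (1 higher and 0 lower at an unadjusted p under 0.05, DESeq2 0, limma-voom 1). With both replicates 1 left out, edgeR called 1 higher and 0 lower, beside 355 and 214 of 14763 genes. The gene with an unadjusted p under 0.05 was Ube2l6, at 93.4, 35.3 and 29.4 CPM in saline and 118, 105 and 100 CPM in poly(I:C). Its groups were apart (log2 1.03, edgeR adjusted p = 0.226), and its high saline value was in the library with the neutrophil markers. Of 7 silencing partners of TRIM28 only Morc3 rose, from 173 ± 2.67 to 255 ± 15.2 CPM (log2 0.56, edgeR adjusted p = 0.0271). For these 7, DESeq2 called 1 higher and 0 lower, limma-voom 2 and 1, and edgeR with both replicates 1 left out 2 and 0. Of all genes, edgeR called 0.883% higher and 0.0747% lower, DESeq2 3.76% and 3.03%, and limma-voom 8.61% and 10.9%. The unadjusted edgeR shares were 10.5% and 10.8%. Setdb1, the methyltransferase that TRIM28 recruits, had a log2 difference of −0.14 (edgeR adjusted p = 0.426). Some TRIM proteins are encoded under other symbols and were no members by the rule. Of these Pml, which builds nuclear bodies, rose 2.78-fold from 46.9 ± 3.66 to 130 ± 13.0 CPM (log2 1.48, SE 0.10, edgeR adjusted p = 0.00144), and Mid1, a microtubule-linked ligase, was at 58.7 ± 22.0 and 91.0 ± 5.52 CPM and not called (edgeR adjusted p = 0.212).

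Across the alternatives, all 8 called members kept their direction. Trim30a, Trim30c and Trim34b were the 3 that were called in each of the 6 fits that left out 1 library, with adjusted p of at most 0.0193, 0.0128 and 0.0113.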

How the data were processed

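The authors deposited raw read counts per gene symbol, 1 column per library, neither normalised nor pooled. Per the submitters' processing notes the tools were fastp, HISAT2 and HTSeq with build GRCm39, with versions, annotation and settings not given in the sources used here. Per the labels' protocols, cells were purified on Percoll and CD11b beads, and libraries were made with a SMARTer kit followed by Nextera XT, which does not mark strand, so overlapping genes on opposite strands cannot be told apart, and copies can share or lose reads. PCR reads without molecular identifiers are not molecules, so floors cover counting error only.

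Counts were analysed with edgeR 4.0.16 in R 4.3.3 (filterByExpr, TMM, glmQLFit and glmQLFTest, 3 against 3 libraries, no covariate, 14727 of 23491 genes tested). SE was taken as |log2 fold change| over the root of F. Alternatives were scaling by RLE, by upper quartile or by total counts, no filter, a filter of 5 CPM in 3 libraries, DESeq2 1.42.0, limma-voom with quality weights (limma 3.58.1), a replicate block, leaving out each library, and leaving out both replicates 1. Adding up the copies of Trim30, Trim34 and Trim12 was chosen after seeing the data. Members, lists and markers were chosen with earlier results of these data known. Named genes were called members, up to 4 per role by p, Trim14, Trim21, Trim25, Trim28, Trim30a and Trim56, rows next to the limit of 10 counts, and called partners. Trim30b, Trim30d, Trim5, Trim65, Trim26, Trim10, the low-count members that were not tested, Gm38525 and all genes outside the family that were not called were chosen after their values were seen. The same holds for Pml. Exon lengths and shared 100-base stretches came from GENCODE M21 (GRCm38) and promoters from RefSeq (GRCm38.p6); all 48 members matched the first and 37 the second. No library was a duplicate: chi-square per gene between replicates was 21.2 to 113. Scripts were tested on simulated data with 50 genes changed at each size. The edgeR fit recovered 6% of 1.5-fold, 42% of 2-fold, 68% of 4-fold and 86% of 8-fold changes. Of its 109 calls, 8 were false. A gene that was not called may therefore still differ, and changes of 4-fold or 8-fold were also missed in part.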

Additional observations from a re-analysis of the deposited data

How the results depend on the processing

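The family had 8 higher members in edgeR, 13 in limma-voom, and between 3 and 8 with 1 library left out. It had 0 lower members, but 2 in DESeq2, 5 in limma-voom and 1 with both replicates 1 left out. Of all genes 130 were higher, but 557 in DESeq2, 1268 in limma-voom, 355 with both replicates 1 left out and between 51 and 167 with 1 library left out. There were 11 lower genes, but 18 without the filter, 448 in DESeq2, 1608 in limma-voom, 214 with both replicates 1 left out and between 0 and 20 with 1 library left out. The cluster's 5 became 3 with copies summed, since there were then fewer genes to count, and between 3 and 6 with 1 library left out. The partners' 7 higher became 11 in limma-voom, 11 with both replicates 1 left out and between 3 and 7 with 1 library left out, and their 0 lower became 3 in limma-voom. The causes were not tested beyond this.

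A replicate block gave 9 higher members with Trim30d added, 6 in the cluster, 7 partners and 89 lower genes in all. The numbers share only a label: correlations of same-numbered libraries were 0.148, −0.0907 and 0.246, and saline replicates 2 and 3 correlated best with other numbers.

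Among 32 named members over 496 pairs of member and setting, 10 reversed, all in members that were not called. The log2 fold change of Trim33 was −0.0072 with RLE scaling and −0.014 in DESeq2. With 1 library left out, Trim33 was between −0.051 and 0.056, Trim9 between −0.12 and 1.72, Trim66 between −0.030 and 0.98 and Trim13 between −0.28 and 0.077. Trim13 was 0.0013 with both replicates 1 left out. Scaling moved the median of all genes to at most 0.08. Members under about 1 CPM rest on few reads, and differences there were not detectable at this depth unless large.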
